A study of Mus musculus with 3 samples.

Results

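Genes that mark megakaryocytes and platelets were followed in mouse leukemias that lack miR-196b. The 10 genes (Pf4, Ppbp, Vwf, Itga2b, Itgb3, Gp9, Gp1bb, Gp6, Treml1 and Fli1) were chosen by symbol, and each was found on 1 row among the 28074 symbols of the deposited table. RNA came from 3 primary acute myeloid leukemias (AML), each from the leukemic spleen of its own mouse, taken when the animal was moribund. All 3 mice had the genotype field miR196b-/-Dnmt3afl/fl,Flt3ITD/ITD,Mx1Cre, and the study calls them BKO AML. The sample titles give Dnmt3a+/- where the genotype field gives Dnmt3a fl/fl, and this conflict was not resolved. Mx1Cre is a Cre recombinase under the interferon-inducible Mx1 promoter, and Flt3ITD is a Flt3 receptor with an internal tandem duplication. No ages are given. Red cells were lysed and c-Kit-bearing cells were enriched on magnetic beads before RNA extraction, per the labels' protocols. The 3 mice make up 1 group, and all of them carry the miR-196b deletion. The study asked how expression differs when leukemia cells of this kind lack miR-196b, but leukemias that keep it were not analysed here. No difference between genotypes was therefore tested, and the values describe the genes in these 3 leukemias.

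Megakaryocytes are the large bone marrow and spleen cells that shed platelets. They arise from progenitors that also give rise to red cells, and c-Kit is carried by those progenitors but is lost as megakaryocytes mature. Transcription factors such as Gata1, Fli1, Runx1, Tal1 and Nfe2 switch on receptors for collagen, fibrinogen and von Willebrand factor, together with granule proteins that platelets release when they are activated. Several of these genes are also active outside the lineage: Itga2b and Gata2 in early stem cells and mast cell progenitors, Vwf in endothelium, and Fli1 in stem cells, many blood lineages and endothelium.

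Levels are in TPM, a transcript abundance scaled for transcript length and for the library total, so genes can be compared with each other. The column sums were between 927169 and 929731. TPM keeps no read depth, so the depth behind each value is unknown, and errors are standard deviations (SD) between mice. A mean of at least 1 TPM was reached by 15181 genes, and their median was 17.5 TPM. In bulk RNA, fewer cells of a type and less RNA per cell cannot be told apart.

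The transcription factor Fli1 was the most abundant of the 10 genes, and the platelet receptors Treml1 and Gp6 were the least abundant. By mean TPM the order was Fli1, Vwf, Itga2b, Pf4, Itgb3, Gp9, Ppbp, Gp1bb, Treml1 and Gp6. The ranges over the mice did not overlap between Fli1 and Vwf, nor between Treml1 and Gp6. The other 7 pairs of neighbours in this order overlapped. Compared within each mouse, Gp9 exceeded Ppbp, Ppbp exceeded Gp1bb and Gp1bb exceeded Treml1 in all 3 mice. Vwf exceeded Itga2b, Pf4 exceeded Itgb3 and Itgb3 exceeded Gp9 in 2 mice, and Itga2b exceeded Pf4 in 1. A mean of at least 1 TPM was reached by 8 of the 10 genes, against 15181 of all 28074 symbols. Treml1 and Gp6 were below it. The 10 genes together had 212, 191 and 214 TPM in mice 1, 2 and 3, and Fli1 made up 47.1%, 51.8% and 43.4% of these sums.

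**Figure D1:**
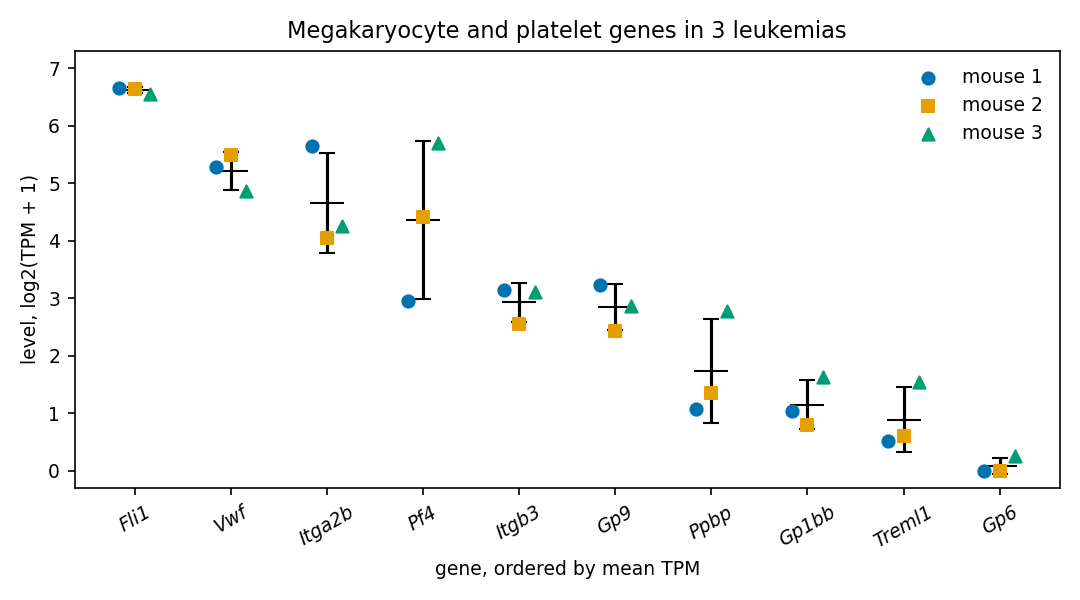
Level of each of the 10 genes on the log2(TPM + 1) scale in mouse 1 (circle), mouse 2 (square) and mouse 3 (triangle), with a bar at the mean and error bars of 1 SD (n = 3). Fli1 lies near 6.62 in all mice, Pf4 and Ppbp are highest in mouse 3, and Itga2b is highest in mouse 1.

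By SD on the log2(TPM + 1) scale, the alpha granule chemokines Pf4 and Ppbp varied most between mice, with Itga2b next at 0.87. This ranking depended on mouse 3. Without it, Itga2b had the largest SD, at 1.13 against 1.04 for Pf4 and 0.19 for Ppbp. Pf4, platelet factor 4, is a chemokine that binds heparin and is released from alpha granules. Its gene (ENSMUSG00000029373.7) lies on the plus strand of chromosome 5, from 90772435 to 90773383, in GRCm38 (GENCODE M21). Pf4 had 6.73, 20.4 and 51.0 TPM in mice 1, 2 and 3, with a mean of 26.0 ± 22.7 TPM (SD, n = 3). It was lowest in mouse 1 and highest in mouse 3, where it was 7.57 times the level in mouse 1. On the log2(TPM + 1) scale its SD was 1.38, at percentile 99.4 of the SDs of genes with a mean of at least 1 TPM. Without mouse 1 this SD was 0.91.

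Ppbp, pro-platelet basic protein, is the precursor of the neutrophil attractant NAP-2 and sits in the same granules. It is the neighbour of Pf4, from 90768518 to 90770063 on the plus strand of chromosome 5 (ENSMUSG00000029372.7), with 2371 bases between the genes. Ppbp had 1.11, 1.56 and 5.83 TPM in mice 1, 2 and 3, a mean of 2.83 ± 2.61 TPM (SD, n = 3). Mouse 3 stood apart, at 5.24 times mouse 1 and 3.75 times mouse 2, while mice 1 and 2 were close. Its SD was 0.91 on the log2(TPM + 1) scale, and it was 0.19 without mouse 3. Pf4 and Ppbp thus had the same order of mice at levels that differed 6.05-fold, 13.1-fold and 8.74-fold in mice 1, 2 and 3. The same order was held by 9.93% of all genes with a mean of at least 1 TPM. After scaling to a common upper quartile it was held by 15.9%.

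Because these neighbours shared their order of mice, their promoters are shown, from 250 bases before to 50 bases after the annotated start of each gene (RefSeq, GRCm38.p6, plus strand, chr5:90772185-90772484 for Pf4 and chr5:90768268-90768567 for Ppbp). Capitals mark matches on either strand to AGATAA or TGATAA, forms of the site that GATA factors bind, and to GGAAGT, a form of the site that ETS factors such as Fli1 bind. A GGAAGT site on the minus strand reads as its reverse complement, which begins with ACTT.

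Pf4: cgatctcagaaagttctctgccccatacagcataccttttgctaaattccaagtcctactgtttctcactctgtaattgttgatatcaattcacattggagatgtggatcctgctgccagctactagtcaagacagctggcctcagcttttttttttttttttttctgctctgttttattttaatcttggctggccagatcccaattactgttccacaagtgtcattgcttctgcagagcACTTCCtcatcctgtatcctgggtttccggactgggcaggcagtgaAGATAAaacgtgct

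Ppbp: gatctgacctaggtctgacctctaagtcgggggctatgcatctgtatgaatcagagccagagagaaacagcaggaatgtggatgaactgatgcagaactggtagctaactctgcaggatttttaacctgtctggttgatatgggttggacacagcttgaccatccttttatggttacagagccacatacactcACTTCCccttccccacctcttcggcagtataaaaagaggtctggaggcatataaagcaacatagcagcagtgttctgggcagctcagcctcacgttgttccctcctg

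Counted from the start site as base 1, with the base before it as -1, the ETS match of Pf4 begins at base -10 and its GATA match at base 37. In the Ppbp window there is 1 ETS match, which begins at base -57, and no match to either GATA form. A match is a description of the letters only.

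Vwf, von Willebrand factor, is the large adhesive protein that tethers platelets to damaged vessel walls, and it is made by megakaryocytes and endothelium. Its gene (ENSMUSG00000001930.17) spans 125546774 to 125686679 on the plus strand of chromosome 6. Vwf had 38.0, 44.1 and 27.9 TPM in mice 1, 2 and 3, a mean of 36.7 ± 8.14 TPM (SD, n = 3). It was highest in mouse 2 and lowest in mouse 3, the mouse in which Pf4 and Ppbp were highest. The largest difference between mice was 1.58-fold. Of 13 endothelial marker genes, 6 had a mean of at least 1 TPM: Pecam1 (41.1 TPM), Egfl7 (32.8 TPM), Tie1 (4.76 TPM), Esam (2.94 TPM), Emcn (2.25 TPM) and Robo4 (1.08 TPM). Pecam1 and Egfl7 are also expressed in blood cells. The other 7 had means below 1 TPM: Cdh5, the cadherin of endothelial junctions, had 0.225, 0.470 and 0.431 TPM, and Cldn5, Sox17, Sox18, Tek, Kdr and Mmrn2 had means between 0.0154 and 0.412 TPM. The summed endothelial list was 98.2, 77.0 and 83.7 TPM in mice 1, 2 and 3, most of it from Pecam1 and Egfl7. The part of endothelium in the Vwf values was not tested.

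The fibrinogen receptor is a pair of Itga2b and Itgb3, integrin alpha IIb (CD41) and integrin beta 3. Itga2b (ENSMUSG00000034664.13; chromosome 11, 102453297 to 102470122, minus strand) had 49.0, 15.5 and 18.2 TPM in mice 1, 2 and 3, a mean of 27.6 ± 18.6 TPM (SD, n = 3). It was highest in mouse 1, at 3.15 times mouse 2 and 2.69 times mouse 3, and mice 2 and 3 were close. Its SD on the log2(TPM + 1) scale was 0.87, at percentile 97.7, and it was 0.15 without mouse 1. Itgb3 (ENSMUSG00000020689.4; chromosome 11, 104608000 to 104670476, plus strand) had 7.79, 4.83 and 7.58 TPM, a mean of 6.73 ± 1.65 TPM (SD, n = 3). Mice 1 and 3 were nearly equal for Itgb3 and mouse 2 was lowest. The highest mouse was mouse 1 in the values as deposited and mouse 3 after scaling to a common upper quartile.

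The promoter of Itga2b is shown beside those of Pf4 and Ppbp because it was highest in mouse 1, where those were lowest (RefSeq, GRCm38.p6, minus strand, chr11:102469834-102470133).

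Itga2b: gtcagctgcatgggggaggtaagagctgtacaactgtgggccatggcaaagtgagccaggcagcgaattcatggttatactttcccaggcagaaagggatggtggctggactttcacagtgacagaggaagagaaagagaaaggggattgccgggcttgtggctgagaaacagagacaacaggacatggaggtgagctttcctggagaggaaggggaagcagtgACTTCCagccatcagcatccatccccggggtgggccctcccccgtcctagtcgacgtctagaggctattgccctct

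It holds 1 ETS match, which begins at base -26, and no match to either GATA form in this window. GENCODE M21 puts the upstream end of the gene at 102470122, so most of this window, the ETS match included, lies inside that gene model. RefSeq and GENCODE thus differ on where Itga2b starts.

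Gp9 and Gp1bb encode leucine-rich subunits of the GPIb-IX-V complex, the platelet receptor for von Willebrand factor. Gp9 (ENSMUSG00000030054.4; chromosome 6, 87778072 to 87779768, plus strand) had 8.32, 4.37 and 6.32 TPM in mice 1, 2 and 3, a mean of 6.34 ± 1.98 TPM (SD, n = 3). Gp1bb (ENSMUSG00000050761.4; chromosome 16, 18620317 to 18622403, minus strand) had 1.05, 0.731 and 2.08 TPM, a mean of 1.29 ± 0.707 TPM. Both were lowest in mouse 2, with Gp9 highest in mouse 1 and Gp1bb highest in mouse 3. Exons of Gp1bb overlap those of Sept5 and Gm49601 on the same strand in GENCODE M21, so its value is uncertain. It was the only one of the 10 genes with an annotated exon overlap on either strand. The other subunits of the complex were at similar low levels: Gp1ba, the subunit that contacts von Willebrand factor, had 4.35, 2.15 and 3.67 TPM, and Gp5 had a mean of 1.31 ± 0.595 TPM (SD, n = 3).

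The activation receptors were the lowest of the genes. Gp6, the collagen receptor glycoprotein VI (ENSMUSG00000078810.4; chromosome 7, 4363965 to 4397744, minus strand), was listed at 0 in mice 1 and 2 and had 0.190 TPM in mouse 3. Treml1, a receptor stored in alpha granules and shown on activated platelets (ENSMUSG00000023993.7; chromosome 17, 48359916 to 48367176, plus strand), had 0.436, 0.523 and 1.90 TPM, a mean of 0.954 ± 0.823 TPM (SD, n = 3). Treml1 was highest in mouse 3, as Pf4 and Ppbp were. The promoter of Gp6 is shown because, of the members with a promoter sequence, only Gp6 and Pf4 hold matches of both kinds, while their levels lie far apart (RefSeq, GRCm38.p6, minus strand, chr7:4397695-4397994).

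Gp6: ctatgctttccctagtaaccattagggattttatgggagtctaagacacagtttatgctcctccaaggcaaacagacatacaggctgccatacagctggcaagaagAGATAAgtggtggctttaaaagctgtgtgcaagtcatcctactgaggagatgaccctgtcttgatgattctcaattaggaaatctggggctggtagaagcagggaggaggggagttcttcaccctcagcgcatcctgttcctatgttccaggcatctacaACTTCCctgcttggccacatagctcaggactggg

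The GATA match begins at base -144 and the ETS match at base 17. Promoter sequences were matched for 7 of the 10 genes. GGAAGT was found in 5 of the 7 (Gp6, Gp9, Itga2b, Pf4 and Ppbp), and in 23.8% of all 32851 promoter windows of 300 bases. AGATAA was found in 2 of the 7, against 11.2% of all windows, and TGATAA in 0 of the 7, against 9.05%. Both kinds were found together in 2 of the 7 and in 4.26% of all windows. Gp1bb and Treml1 had none of these matches.

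Fli1 is the ETS transcription factor that drives late megakaryocyte genes. Its gene (ENSMUSG00000016087.13) spans 32422204 to 32542861 on the minus strand of chromosome 9. Fli1 had 99.9, 98.7 and 92.9 TPM in mice 1, 2 and 3, a mean of 97.2 ± 3.72 TPM (SD, n = 3). It was the highest of the 10 genes in every mouse, at percentile 89.9 of all genes with a mean of at least 1 TPM, and its SD of 0.06 was at percentile 5.12. The differences between mice were 1.08-fold at most, and the highest mouse was mouse 1 as deposited but mouse 2 after upper-quartile scaling.

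Differences of at least 2-fold between 2 mice, on the TPM + 1 scale, were counted next among the 8 genes with a mean of at least 1 TPM. Between mice 1 and 2, Pf4 was higher and Itga2b lower in mouse 2, against 4.64% of all genes called in either direction (2.55% higher and 2.09% lower). Between mice 1 and 3, Pf4 and Ppbp were higher and Itga2b lower in mouse 3, against 5.38% of all genes (2.54% higher and 2.84% lower). Between mice 2 and 3, Pf4 and Ppbp were higher in mouse 3, against 2.90% of all genes (1.59% higher and 1.30% lower). In all, 3 of the 8 genes differed for at least 1 pair of mice, against 8.57% of all genes. Treml1, which is below the filter, also differed between mice 1 and 3, against 3.36% of all symbols without a filter. These counts compare single libraries and carry no test, and the list was chosen with results of these data known. The same 3 genes were called for the same pairs after upper-quartile scaling, against 4.80%, 5.35% and 2.94% of all genes for mice 1 and 2, 1 and 3, and 2 and 3.

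**Figure D2:**
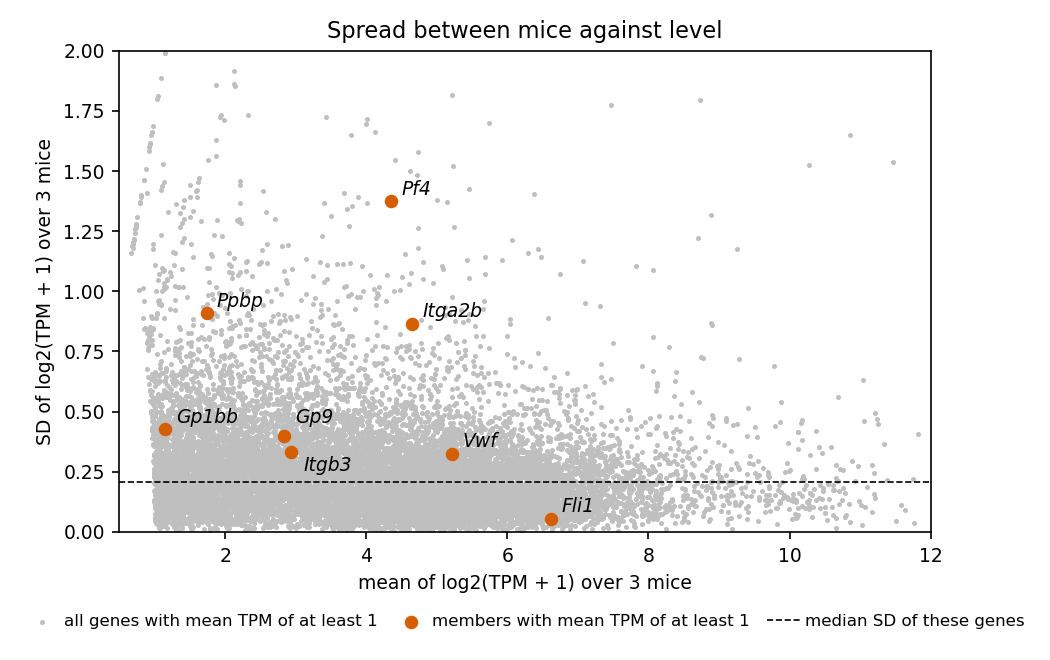
SD between 3 mice against the mean level, both on the log2(TPM + 1) scale, for the 15181 genes with a mean of at least 1 TPM (grey) and the 8 members among them (orange). The dashed line is the median SD of 0.208, and 25 genes with an SD over 2 and 13 genes with a mean over 12 lie outside the axes. Pf4, Ppbp and Itga2b lie high above the line, and Fli1 lies below it.

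Of the 8 members with a mean of at least 1 TPM, 4 were highest in mouse 1, 1 in mouse 2 and 3 in mouse 3. Of all genes with a mean of at least 1 TPM, 48.6%, 31.1% and 20.3% were highest in mice 1, 2 and 3. After upper-quartile scaling the counts for the 8 members were 2, 2 and 4, and the shares of all genes were 35.6%, 33.9% and 30.4%. The changes were those of Itgb3 and Fli1, whose highest mice were nearly equal to others. Gp6 and Treml1, below that level, were highest in mouse 3 under both scalings.

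A wider list of 61 megakaryocyte and platelet genes, which includes the 10, was described by role. Of the 61, 55 had a mean of at least 1 TPM, against 15181 of all 28074 symbols. The 6 below 1 TPM were Gp6, Treml1, Tubb1, Itga2, Myl9 and Mmrn1. The median of the 61 means was 23.7 TPM. Within single roles the median ranged from 3.39 TPM for surface receptors to 138 TPM for cytoskeleton genes. The list includes genes also expressed beyond the lineage, such as Fli1, Srgn and Nbeal2, so these numbers do not measure megakaryocyte content. Among the 51 genes beyond the 10, 47 passed this level. Of these 47, 9 differed at least 2-fold for some pair of mice, against 8.57% of all genes.

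Of the receptors, the tetraspanin Cd9 was the most abundant, at 201 TPM on average, followed by Itga2b. Among granule genes, Srgn, the proteoglycan serglycin that packs granules in many blood cells, had 626 ± 27.6 TPM (SD, n = 3), and Nbeal2, which is needed for alpha granules to form, had 82.6 ± 12.2 TPM. Both are expressed beyond the lineage. Besides Pf4 and Ppbp, 4 granule genes differed at least 2-fold for some pair of mice. Thbs1, thrombospondin, had 0.780, 3.64 and 7.78 TPM in mice 1, 2 and 3, the same order as Pf4. F5, coagulation factor V, had 5.15, 4.39 and 9.97 TPM. F13a1, a subunit of coagulation factor XIII, had 9.79, 6.85 and 18.9 TPM. Mouse 3 was highest for each of these 3 genes. Serpine2, a protease inhibitor, had 6.21, 2.07 and 5.46 TPM and was low in mouse 2.

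Of the activation and signalling genes, Plek, the kinase C substrate pleckstrin, and Tln1, talin, which activates integrins, had the highest means, 332 and 317 TPM. All 14 activation and signalling genes passed 1 TPM. F2rl2, a thrombin receptor of platelets, had 49.0, 58.3 and 36.6 TPM in mice 1, 2 and 3. F2rl3, another thrombin receptor, had 13.6, 5.25 and 4.79 TPM, and Tbxa2r, the thromboxane receptor, had 5.40, 1.71 and 2.17 TPM. Both were highest in mouse 1, as Itga2b was. Ptgs1, the cyclooxygenase that starts thromboxane synthesis, had 8.65, 9.49 and 25.6 TPM and was highest in mouse 3. Of the cytoskeleton genes, Myh9 and Flna had means of 428 and 375 TPM, whereas Tubb1, the beta tubulin of platelets, had 0.313 TPM. Jak2 and Sh2b3, the kinase and the brake of thrombopoietin signalling, had means of 127 and 78.5 TPM.

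All 14 transcription factors of the list were above 1 TPM, with means from 12.2 to 163 TPM. Gata1, the factor that megakaryocytes and red cells share, had 9.60, 7.62 and 19.5 TPM in mice 1, 2 and 3. Gata2, which acts in stem and mast cell progenitors, had 44.3, 16.8 and 16.9 TPM. Both were lowest in mouse 2, with Gata1 highest in mouse 3 and Gata2 highest in mouse 1. Etv6, Ldb1, Nfe2 and Runx1 had means of 163, 103, 99.2 and 88.3 TPM. Lyl1, Erg, Mafg, Mef2c, Zfpm1, Gfi1b and Tal1 followed at 64.8, 52.2, 44.4, 32.4, 30.3, 24.0 and 20.5 TPM. Mouse 2 was lowest for 10 of the 14, against 33.0% of all genes, and this count was 10 after upper-quartile scaling too, against 33.5%.

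**Figure D3:**
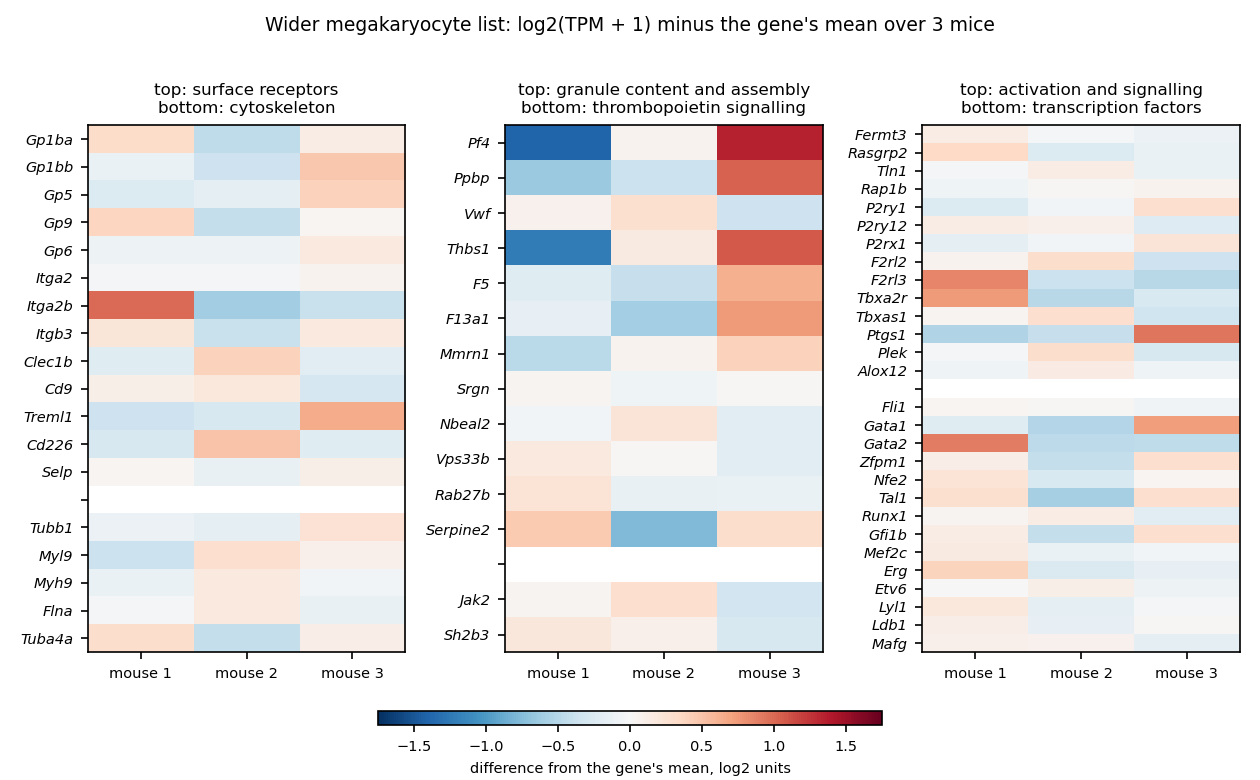
Difference of each gene of the wider list from its own mean over 3 mice (log2(TPM + 1) units, blue lower and red higher), with 1 column per mouse and the genes grouped by role (of thrombopoietin signalling, Jak2 and Sh2b3 are drawn). Pf4, Ppbp, Thbs1 and Ptgs1 are red in mouse 3, and Itga2b, F2rl3, Tbxa2r and Gata2 are red in mouse 1.

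Some markers of other cell types had the same order of mice as some of these genes. Erythroid genes were highest in mouse 3 for 8 of the 9 with a mean of at least 1 TPM, against 20.3% of all genes, and 9 of 9 were lowest in mouse 2, against 33.0%. After upper-quartile scaling the counts were the same, against 30.4% and 33.5%. Their sum was 259, 191 and 356 TPM in mice 1, 2 and 3. Of the 55 genes of the wider list with a mean of at least 1 TPM, 9 had this order, Gata1 and Gp1bb among them. The share of all genes with this order was not computed, so whether 9 of 55 is more than usual cannot be said. The part of erythroid cells in those values was not tested. Tfrc, the transferrin receptor, was highest at 148 TPM on average, and Ermap, a red cell membrane protein, had 38.8 TPM. Tfrc alone gave 150, 120 and 176 TPM of the erythroid sum in mice 1, 2 and 3. The alpha globin gene Hba-a1 was at 0.377, 0.116 and 1.26 TPM. Hbb-bt and Hbb-bs were listed but not found under these symbols, so they are not in the sum.

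Of the 5 macrophage genes with a mean of at least 1 TPM, 4 were lowest in mouse 1 and highest in mouse 3, the order of Pf4. This order was held by 9.93% of all genes. After upper-quartile scaling the count was 4, against 15.9%. Emr1, among the 4, was nearly equal in mice 2 and 3, at 21.5 and 21.6 TPM. Csf1r, the receptor for macrophage colony-stimulating factor, had 8.35, 15.6 and 24.8 TPM in mice 1, 2 and 3. Cd68 had the highest mean, 99.7 TPM, and was highest in mouse 2, with 68.2, 124 and 107 TPM in mice 1, 2 and 3. Emr1 was next at 18.6 TPM. Marco was listed at 0 in all mice. C1qa, C1qb and C1qc had means below 1 TPM, and C1qa and C1qb were lowest in mouse 2. The list's sum was 95.7, 172 and 170 TPM in mice 1, 2 and 3, so it did not rise from mouse 2 to mouse 3 as Pf4 did. The part of these cells in the Pf4 and Thbs1 values was not tested.

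Of the 6 mast cell and basophil genes with a mean of at least 1 TPM, 3 were highest in mouse 1, as Itga2b and Gata2 were, and 3 in mouse 3. The shares of all genes are 48.6% and 20.3%, and after upper-quartile scaling the counts stood against 35.6% and 30.4%. Cpa3, the mast cell carboxypeptidase, had 51.9, 14.6 and 13.2 TPM in mice 1, 2 and 3, and Mcpt8, a basophil protease, had 31.4, 12.5 and 17.3 TPM. These were the 2 highest of the list, and both were highest in mouse 1. Fcer1a and Cma1 had means of 0.0507 and 0.0230 TPM and Tpsb2 was listed at 0 in all mice. The sum of the 9 genes was 110, 54.8 and 74.9 TPM. Among stem cell genes, Cd34 had 202, 141 and 137 TPM and Kit, the gene of the enrichment marker, had 139, 149 and 133 TPM, with a list sum of 474, 379 and 360 TPM. The part of mast cells or stem cells in the Itga2b values was not tested.

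**Figure D4:**
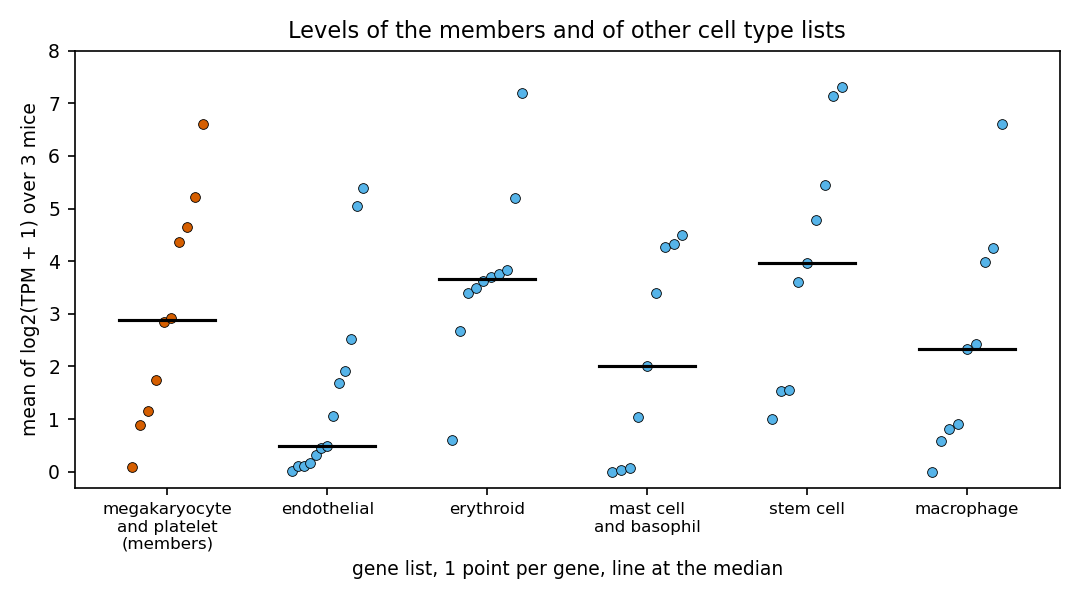
Mean of log2(TPM + 1) over 3 mice for each gene of the 10 members (orange) and of the lists for 5 other cell types (blue), with a line at each list's median. The medians are 2.88 for the members, 0.48 for endothelial, 3.66 for erythroid, 2.01 for mast cell and basophil, 3.97 for stem cell and 2.33 for macrophage genes.

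The genes most like Pf4 over the 3 mice were sought among all genes with a mean of at least 1 TPM, by the root mean square difference of log2(TPM + 1) values centred on each gene's mean. The closest 5 were Itgb2l (0.01), Gm8696 (0.10), Lyz2 (0.10), G0s2 (0.12) and Ngp (0.15). Itgb2l had 5.11, 16.1 and 39.6 TPM in mice 1, 2 and 3. Lyz2, a lysozyme of monocytes, macrophages and neutrophils, had 194, 450 and 1209 TPM. Ngp, a neutrophil granule protein, had 438, 1193 and 3639 TPM. None of the 5 closest genes was in the wider megakaryocyte list. With 3 mice, likeness rests on 3 values per gene and is a description.

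The members were also examined for sites of the deleted microRNA. The mature sequence of miR-196b-5p (RefSeq, GRCm38.p6, minus strand, chr6:52230129-52230150) is shown because its seed, bases 2 to 8, in capitals, defines the site that was searched.

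mmu-miR-196b-5p: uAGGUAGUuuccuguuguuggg

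The complement of this seed, ACTACCT, was found in the longest annotated 3′ UTR of 0 of the 10 genes, and in 6.71% of the 11916 genes with a mean of at least 1 TPM and an annotated 3′ UTR. The UTRs of the 10 genes were 123 to 4898 nt long, against a median of 1145 nt over the 11916 genes. Only those of Gp6 (4898 nt), Itgb3 (3331 nt) and Fli1 (1572 nt) were longer than that median. With 10 genes, 0 cannot be told from a share of 6.71%. No match says only that these letters are not in these sequences.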

How the data were processed

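The authors deposited 1 table with a row per gene. Although the table is named as log2 FPKM, its values were linear, from 0 to 28760.5, and the column sums were nearly equal, at 927169 to 929731, so the deposited values were read as TPM. The submitters' processing notes name kallisto and mm10. Versions, annotation and the summing of transcripts to symbols are not given in the sources used here. One label names ribosomal depletion and another an mRNA kit.

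Rows with no symbol (795, 0.532% to 0.608% of the column sums) or a calendar date as symbol (27) were left out, and the values of 90 symbols on several rows were summed. Another 3 per-sample columns match no sample of this series and were not used. Columns were matched to mice by the mouse number in the titles. The numbers 1, 2 and 3 follow the sample records and only name the mice.

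Spread was the SD of log2(TPM + 1) over 3 mice. With 1 group there was no test. Alternatives covered upper-quartile scaling (shifts of -0.08, 0.01 and 0.06 log2 units in mice 1, 2 and 3), the pseudocount, the thresholds, each mouse left out and symbols on several rows left out. All 10 members are named. One gene of the wider list is counted in its totals but not reported here. Named genes of the wider list are the transcription factors, the 2 highest of each other role, and those with a mean of at least 1 TPM and a 2-fold difference. For other cell types they are the 2 highest and any at 0 in all mice. Further genes (among them Gp1ba, Gp5, F2rl2, Tubb1, Cdh5, Tie1, Esam, Emcn, Robo4, Csf1r, Hba-a1 and other low markers) were named after their values were seen. The members and lists were chosen with earlier results of these data known. Coordinates are from GENCODE M21 (GRCm38, the assembly of mm10). Scripts were tested on simulated data and used Python 3.11.15, numpy 2.4.6, pandas 2.3.3 and matplotlib 3.10.9.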

Additional observations from a re-analysis of the deposited data

How the results depend on the processing

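The depth reached is unknown, so counting error in genes near 1 TPM or below cannot be stated. With 3 mice, leaving 1 out cannot move a mean by as much as its SD, so such moves are given by size. Without mouse 3 the mean of Pf4 was 13.6 rather than 26.0 TPM, that of Ppbp 1.33 rather than 2.83, that of Treml1 0.479 rather than 0.954, and Gp6 was listed at 0. Without mouse 1 the mean of Itga2b was 16.9 rather than 27.6 TPM. The median of the 10 means, 6.54 TPM, was 5.78 to 7.50 when 1 mouse was left out. The median SD of the 10 genes, 0.414, was 0.799 with a pseudocount of 0.1 and ranged from 0.184 (without mouse 3) to 0.423 when 1 mouse was left out. The SDs of single genes moved beyond 1.5 times of their value in 14 of 80 recomputations. The other 66 are no measure of stability. They include the settings for thresholds and for symbols on several rows, which could not change the SD of a member. With upper-quartile scaling 2 of the 10 genes rather than 4 were highest in mouse 1 and 2 rather than 1 in mouse 2. The number of genes with a 2-fold difference was 3, and 2 to 4 under the alternatives. The median of the wider list, 23.7 TPM, ranged from 17.6 (without mouse 1; 18.5 without mouse 3) to 24.4 when 1 mouse was left out. With 1 mouse left out the mean sums were 80.3 to 90.9 TPM for endothelial, 225 to 308 for erythroid, 64.8 to 92.6 for mast cell and basophil, 369 to 426 for stem cell and 133 to 171 for macrophage genes. The cause of these changes was not tested. No paired analysis was possible because all mice belong to 1 group.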

Other observations

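Ratios between genes of 1 complex or locus were not equal between mice. The ratio of Itga2b to Itgb3, whose proteins pair as the fibrinogen receptor, was 6.29, 3.21 and 2.40 in mice 1, 2 and 3. The ratio of Gp9 to Gp1bb was 7.92, 5.98 and 3.03, with the overlap of Gp1bb and its neighbours unresolved. Across the lineage, the ratio of Itga2b to Pf4 was 7.27 in mouse 1, 0.762 in mouse 2 and 0.357 in mouse 3, so that the more abundant of these genes was Itga2b in mouse 1 and Pf4 in the others. Ratios within a library do not depend on its scaling.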
